A study of Mus musculus with 9 samples.

Results

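The genes described here encode the enzymes that remove reactive oxygen species, the NRF2 regulator that controls many of them, and the enzymes that make reactive oxygen species. They were chosen by gene symbol from NRF2 targets and from the glutathione, thioredoxin, superoxide dismutase and NADPH oxidase families. The list holds 41 of the 18272 genes in the table, and all 41 were among the 13960 genes tested. RNA was sequenced from the tibia of female C57BL/6J mice in 3 groups of 3 mice, with 1 library per mouse. Mice were 10 to 11 weeks old on arrival. NGT mice had normal glucose tolerance after an injection of vehicle and were given saline. T1D mice were made diabetic with 1 injection of streptozotocin, which kills the pancreatic beta cells that make insulin, and were given saline. Lira mice had the same injection of streptozotocin and then received 0.6 mg/kg/day of liraglutide, a glucagon-like peptide-1 receptor agonist, for 8 weeks. The label of Lira mouse 3 gives 9 weeks. No group received liraglutide without diabetes.

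Superoxide, formed by mitochondria and by NADPH oxidases, is turned into hydrogen peroxide by superoxide dismutases. Catalase, glutathione peroxidases and peroxiredoxins then reduce the peroxide, with electrons that come from NADPH through glutathione or thioredoxin. NRF2, the protein of Nfe2l2, is held low by its inhibitor KEAP1, and under oxidative stress it accumulates and binds antioxidant response elements in the promoters of many of these genes. In bone, reactive oxygen species take part in osteoclast formation, and high glucose is known to raise their production in many tissues.

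Promoters of the list were searched for the sequence to which NRF2 binds. RefSeq windows (GRCm38.p6) from 250 bases before to 50 bases after the transcription start were matched by gene identifier to 35 of the 41 members, all but Hmox1, Gclc, Gsr, Prdx6, Sod3 and Gsta4. The core of the antioxidant response element, TGACNNNGC, was searched on both strands. It was found in 8 of the 42 windows of the members (19.0%), against 14.2% of the 14107 windows matched to 11033 of the 13960 genes tested and 12.4% of all 32851 windows, a difference that was not tested. The 8 members were Nfe2l2, Gclm, Prdx1, Srxn1, Txnrd1, Sod1, Gstm5 and Mgst1, Txnrd1 with a match in 1 of its 3 windows and Mgst1 in 1 of its 2. The stretches around the match are shown for the regulator itself and for 1 gene each of glutathione synthesis, the peroxiredoxins and the thioredoxin reductases, 5′ to 3′ in the direction of the gene, with the match in capitals. In Gclm, Prdx1 and Txnrd1 the match is to the opposite strand and therefore reads GCNNNGTCA.
Nfe2l2 promoter, chr2:75704875-75704913, minus strand: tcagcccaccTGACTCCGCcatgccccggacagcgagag
Gclm promoter, chr3:122245403-122245451, plus strand: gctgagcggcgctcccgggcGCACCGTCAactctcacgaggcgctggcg
Prdx1 promoter, chr4:116685446-116685494, plus strand: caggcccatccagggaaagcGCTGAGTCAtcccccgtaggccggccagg
Txnrd1 promoter (the window with a match), chr10:82859094-82859142, plus strand: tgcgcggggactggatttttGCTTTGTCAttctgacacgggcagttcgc
The matches lie 240, 134, 133 and 92 bases upstream of the start, in this order of genes. The share of windows with a match is a description of letters, and binding was not measured in these mice.

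Library totals ranged from 13086373 to 16528394 counts. The samples were labelled as tibia, and the bones had been cleaned of muscle, but 12 skeletal muscle markers held 11.6% to 22.7% of all counts. The osteoblast and fibroblast markers held 0.0658% to 1.10%, and the bone gene Bglap was at 0 in NGT mouse 2. Summed erythroid markers ranged from 463 CPM (counts scaled to a fixed library total) in NGT mouse 2 to 29580 CPM in Lira mouse 3, and summed neutrophil markers from 16.01 CPM to 5564 CPM in the same 2 libraries. T1D mouse 1 stood apart through the highest macrophage, adipocyte and osteoblast and fibroblast markers and the lowest muscle markers. In bulk tissue, fewer cells of a type cannot be told apart from less RNA per cell. Several results below are therefore also given without T1D mouse 1 or Lira mouse 3.

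Levels are first compared between genes in FPKM, which is scaled for gene length. Over the 9 libraries, Gpx3, which encodes the glutathione peroxidase secreted into plasma, had the highest mean, 416 FPKM, with a range of 210 to 838. Gpx4, the peroxidase that reduces lipid hydroperoxides in membranes, followed with 295 FPKM. Gstp1, Sod1, Mgst3 and Gstm1, which encode 3 glutathione transferases and the cytosolic superoxide dismutase, had means of 248, 222, 221 and 214 FPKM. Their ranges over the libraries overlapped, so that their order is not fixed by these 9 mice. The lowest means were those of the NADPH oxidase catalytic subunit Nox4, with 2.26 FPKM, and of Gss, Gstt1 and Gpx7, with 4.12, 4.51 and 4.78 FPKM. Transcripts of the 4 NADPH oxidase subunits summed to 6.77 to 179 FPKM over the libraries, and those of the 9 glutathione transferases to 842 to 1286 FPKM, without overlap.

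**Figure D1:**
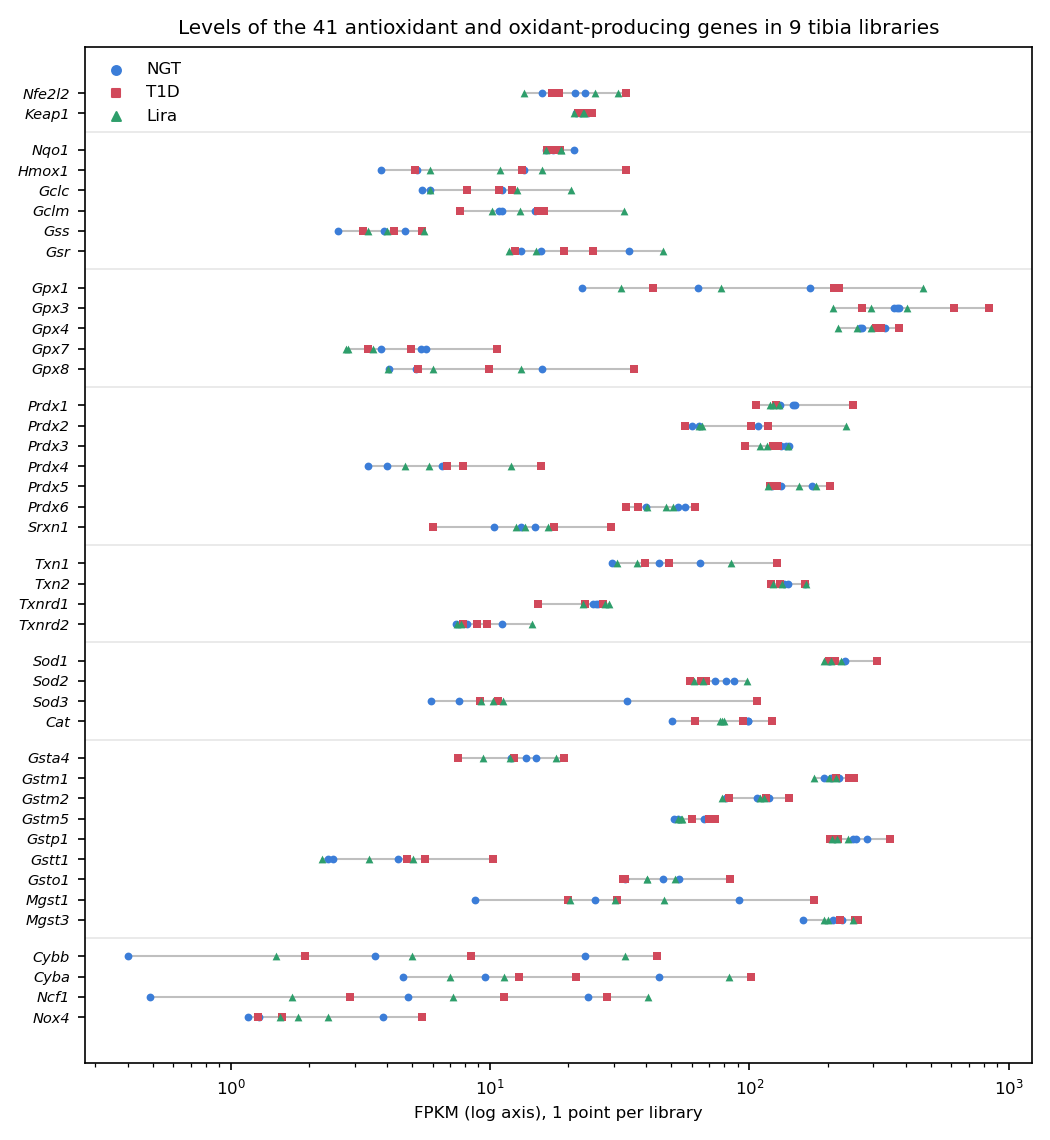
FPKM (log axis) of each of the 41 genes, grouped by role from the NRF2 regulator at the top to the NADPH oxidase subunits at the bottom, with 1 point per library and a line over the range of 9 libraries. Gpx3 reaches 838 FPKM, while Cybb and Ncf1 run from 0.40 and 0.49 FPKM in NGT mouse 2 to over 40 FPKM.

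Spread between mice of a group differed strongly among the members. The median coefficient of variation within groups was 30.5%. Gpx4 (6.94%) and Sod1 (7.77%) varied least, and Cybb (121%), Ncf1 (106%) and Cyba (103%), 3 subunits of the phagocyte NADPH oxidase, varied most. The highest library exceeded the lowest by a median of 2.28-fold among members and 2.15-fold among all genes tested. T1D mouse 1 was the highest library for 15 members and Lira mouse 3 for 8. Among all genes tested, these libraries were the highest for 20.7% and 19.9%.

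**Figure D2:**
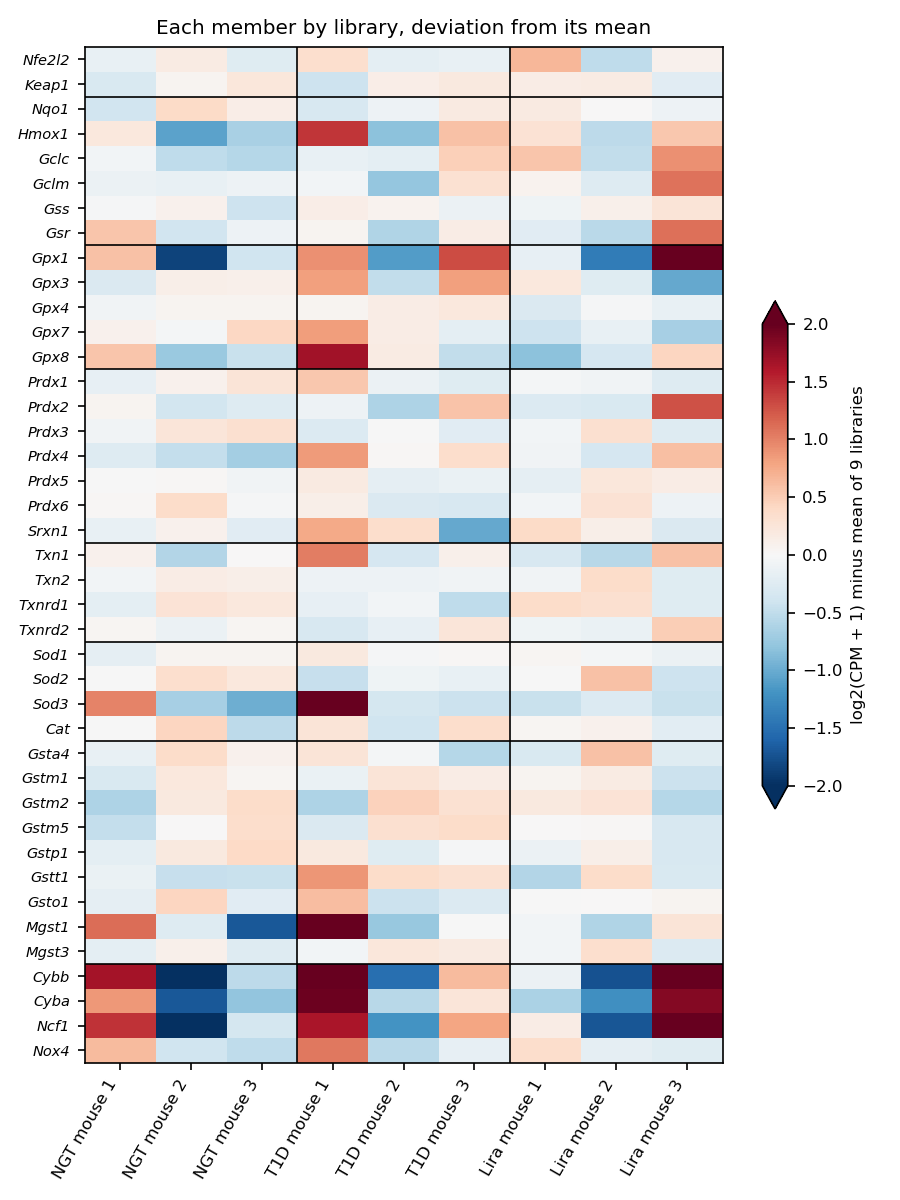
Deviation of log2(CPM + 1) from the mean of the 9 libraries, for each of the 41 genes (rows, grouped by role) in each mouse (columns). Strong colours in Cybb, Cyba and Ncf1 run across groups, with NGT mouse 2, T1D mouse 2 and Lira mouse 2 low and NGT mouse 1, T1D mouse 1 and Lira mouse 3 high. Strong colours are also in Gpx1, highest in Lira mouse 3, and in Sod3 and Mgst1, highest in T1D mouse 1.

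The first comparison, T1D against NGT, asked which of these genes differ in bone under diabetes. No member was a DEG, that is, passed an adjusted p under 0.05 with a fold change over 2 in edgeR's quasi-likelihood test. The background was the same, since 0 of 13960 genes were called (0%), and DESeq2 and limma called 0 members too, DESeq2 giving no adjusted p for Prdx4 and Gstt1. Before adjustment, 2 of 41 members had p under 0.05, Prdx4 and Gstt1, against 3.95% of all genes tested. DESeq2 also gave 2 members. The lowest adjusted p of a member was 0.977. The groups did not overlap for 4 members, Prdx4 and Gstt1 with higher values and Sod2 and Txn2 with lower values in T1D mice, against 8.60% of all genes. Of the 41 fitted log2 fold changes, 29 were above 0 and 12 below, with a median of 0.13 against 0.02 for all genes. The split varied with the mice left out. Without T1D mouse 1, 19 were above 0 and 22 below, with a median of -0.03. With NGT mouse 1 and T1D mouse 1 both left out, a choice made after seeing the data, 24 were above 0 and 17 below, with a median of 0.08.

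NRF2 and KEAP1 transcripts did not separate the groups. Nfe2l2 was measured at 48.3, 59.7 and 45.1 CPM in NGT mice, 67.6, 46.4 and 48.1 CPM in T1D mice and 85.4, 37.5 and 56.8 CPM in Lira mice. Keap1 was measured at 61.6, 79.7 and 89.9 CPM in NGT, 57.0, 84.3 and 88.1 CPM in T1D and 85.2, 86.0 and 65.0 CPM in Lira mice. Both genes overlapped between all groups, and the widest spread of Nfe2l2 lay within the Lira group. The log2 fold change of Nfe2l2 in T1D against NGT was 0.08 ± 0.30 (SE), with a 95% interval of -0.59 to 0.76, and that of Keap1 was -0.01 ± 0.22, with an interval of -0.52 to 0.50. With 3 mice a group, differences of either sign within these intervals remain compatible with the data. NRF2 is controlled mainly through the stability of its protein, which RNA does not show.

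Among NRF2 targets and genes of glutathione synthesis, 4 of 6 had log2 fold changes above 0 in T1D against NGT, with a median of 0.09, and 3 of 6, with a median of -0.03, without T1D mouse 3. Gsr, the reductase that regenerates glutathione and the most abundant of these by FPKM, was measured at 76.3, 39.5 and 48.0 CPM in NGT, 53.9, 33.7 and 57.1 CPM in T1D and 44.1, 35.1 and 112 CPM in Lira mice. The groups overlapped, and the high value belonged to Lira mouse 3, the library with the highest erythroid, neutrophil and B cell markers, whose part was not tested. Hmox1, encoding the haem-degrading enzyme haem oxygenase 1 and named here after its values were seen, had the largest difference of this group, 1.13 ± 0.60 (unadjusted p = 0.0932, edgeR). Its values were 17.6, 6.65 and 9.26 CPM in NGT and 42.2, 8.12 and 23.0 CPM in T1D mice, so T1D mouse 2 lay inside the NGT range. The difference was 0.47 without T1D mouse 1 and 0.96 without both mice of number 1. Nqo1, a quinone reductase often used as a readout of NRF2, had a log2 fold change of -0.15 ± 0.23. For Gclc and Gclm, the 2 subunits of the rate-limiting enzyme of glutathione synthesis, it was 0.45 ± 0.36 and 0.02 ± 0.38, and for Gss, the glutathione synthetase, 0.15 ± 0.23.

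All 5 glutathione peroxidases had fold changes above 0 in T1D mice, with a median log2 fold change of 0.51, and none passed the test. The count was 3 of 5 (median 0.17) without T1D mouse 1 and 4 of 5 (median 0.20) without both mice of number 1. Gpx3 was measured at 475, 625 and 618 CPM in NGT and at 1016, 411 and 1021 CPM in T1D mice. The 2 high T1D libraries lay above all NGT mice, but T1D mouse 2 lay below all of them. Gpx4 was measured at 261, 286 and 284 CPM in NGT, and at 285, 304 and 319 CPM in T1D mice, with a difference of 0.13 ± 0.15 on the log2 scale. T1D mouse 1 lay within the NGT range and the other 2 T1D mice above it. Gpx7, an endoplasmic reticulum peroxidase, had 5.65, 5.11 and 7.36 CPM in NGT and 10.3, 5.96 and 4.47 CPM in T1D mice. These overlapped, with T1D mouse 1 the highest of the 9 libraries. Gpx8, a related membrane protein of the endoplasmic reticulum, was also highest in T1D mouse 1, at 28.7 CPM, and was 4.28 to 12.6 CPM in the other 8 libraries. The log2 fold change of Gpx8 was 0.92 with all mice, -0.04 without T1D mouse 1 and 0.52 without both mice of number 1. Gpx1, also named after its values were seen, had 146, 26.0 and 73.5 CPM in NGT and 183, 43.9 and 240 CPM in T1D mice. The groups overlapped, with a log2 fold change of 0.93 ± 0.98 and a 95% interval of -1.30 to 3.16.

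Prdx4, the peroxiredoxin of the endoplasmic reticulum, gave the lowest p of the list. It was measured at 5.14, 4.25 and 3.56 CPM in NGT and at 12.2, 6.42 and 8.34 CPM in T1D mice. Every T1D mouse lay above every NGT mouse. In Lira mice it had 5.995, 4.83 and 10.2 CPM, which overlapped both other groups. The fold change in T1D against NGT was 2.08 (log2 1.06 ± 0.36, 95% interval 0.23 to 1.89, unadjusted p = 0.0183 and adjusted p = 0.977 in edgeR). An exact permutation test over the mice (two-sided, on log2(CPM + 1)) gave p = 0.1, the smallest that 3 against 3 mice allow. Without T1D mouse 1 the log2 fold change was 0.77 (unadjusted p = 0.0731, edgeR), and without NGT mouse 3 it was 0.94 (unadjusted p = 0.0629, edgeR). These are low counts, with 45 to 225 reads a library.

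The other peroxiredoxins were more abundant and did not separate the groups. Prdx5, the highest of them by FPKM, was measured at 96.1, 98.2 and 92.2 CPM in NGT, 109, 84.9 and 88.0 CPM in T1D and 85.2, 113 and 107 CPM in Lira mice, a narrow range with overlap of all groups. Its 95% interval for T1D against NGT was -0.40 to 0.35 on the log2 scale, one of the tightest in the list. Mitochondrial Prdx3 (-0.34 ± 0.20) and cytosolic Prdx6 (-0.29 ± 0.19) had log2 fold changes below 0, and those of cytosolic Prdx1 and Prdx2 were 0.03 ± 0.23 and 0.22 ± 0.46. Prdx2 had 129, 95.7 and 104 CPM in NGT and 116, 81.0 and 185 CPM in T1D mice. Only T1D mouse 3 lay above the NGT range, and T1D mouse 2 lay below it. Srxn1, sulfiredoxin, which repairs over-oxidized peroxiredoxins and is a target of NRF2, had 0.30 ± 0.40. Leaving out T1D mouse 1 turned the values of Prdx1 and Srxn1 to -0.26 and -0.09, and leaving out both mice of number 1 gave -0.37 and -0.13.

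Of the thioredoxin system, Txn2, the mitochondrial thioredoxin, showed separate groups with a small difference. It was measured at 173, 199 and 195 CPM in NGT and at 167, 168 and 170 CPM in T1D mice. The T1D mice lay close to each other and just below NGT mouse 1, and the log2 fold change was -0.17 ± 0.18 (exact permutation p = 0.1, the smallest possible). In Lira mice the values were 170, 231 and 151 CPM, which spanned both other groups. Cytosolic Txn1 had a log2 fold change of 0.52 ± 0.42 in T1D against NGT, which was 0.03 without T1D mouse 1 and 0.16 without both mice of number 1. The reductases Txnrd1 and Txnrd2 had -0.35 ± 0.22 and -0.05 ± 0.24.

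Sod2, the manganese superoxide dismutase of mitochondria, was the other member with lower values in all T1D mice. It was measured at 278, 351 and 323 CPM in NGT and at 202, 263 and 251 CPM in T1D mice. Every T1D mouse lay below every NGT mouse, by a log2 fold change of -0.41 ± 0.26 (95% interval -1.01 to 0.18, unadjusted p = 0.151 in edgeR, exact permutation p = 0.1). Lira mice had 278, 417 and 210 CPM and overlapped both groups. Summed muscle markers were 124100, 226100 and 255300 CPM in NGT and 92710, 195600 and 250200 CPM in T1D mice, lower in T1D in each pair of the same number. Their part in the difference was not tested.

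Sod1, the cytosolic copper-zinc enzyme, was measured at 121, 142 and 143 CPM in NGT, 156, 134 and 140 CPM in T1D and 140, 133 and 126 CPM in Lira mice. The groups overlapped in a narrow range, and the log2 fold change in T1D against NGT was 0.08 ± 0.14, with a 95% interval of -0.24 to 0.41. Sod3, the extracellular form, is named here after its values were seen, as the largest fold change in 2 comparisons. It was measured at 175 CPM in T1D mouse 1 and at 57.2 CPM in NGT mouse 1, and between 13.8 and 23.1 CPM in the other 7 libraries. The difference of 1.30 ± 0.86 in T1D against NGT was -0.47 without T1D mouse 1 and 0.45 without both mice of number 1. T1D mouse 1 also had the highest summed adipocyte markers (1850 CPM) and osteoblast and fibroblast markers (8846 CPM). The part of these cells was not tested. Cat, catalase, had a log2 fold change of 0.09 ± 0.28.

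Glutathione transferases join glutathione to electrophiles, and 7 of the 9 had log2 fold changes above 0 in T1D against NGT, with a median of 0.10. The count was 3 of 9 (median -0.03) without NGT mouse 1, 5 of 9 (median 0.21) without T1D mouse 1, and 6 of 9 (median 0.08) without both. Gstt1, of the theta class, was the member with the second lowest p. It was measured at 3.74, 2.78 and 2.85 CPM in NGT, 8.59, 5.76 and 5.47 CPM in T1D and 2.50, 5.76 and 3.22 CPM in Lira mice. All T1D mice lay above all NGT mice, and Lira mouse 2 reached the T1D values. The fold change was 2.11 (log2 1.08 ± 0.38, 95% interval 0.22 to 1.93, unadjusted p = 0.0192 and adjusted p = 0.977 in edgeR, exact permutation p = 0.1). Without T1D mouse 1 it was 0.84 on the log2 scale (unadjusted p = 0.0692, edgeR) and without NGT mouse 3 it was 1.02 (unadjusted p = 0.0577, edgeR). Counts were low, 35 to 158 reads a library.

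The most abundant transferase by FPKM, Gstp1, was measured at 154, 202 and 232 CPM in NGT, 201, 149 and 174 CPM in T1D and 163, 191 and 141 CPM in Lira mice, and the groups overlapped. Gstm1, Gstm2 and Gstm5 of the mu class had log2 fold changes of 0.10, 0.07 and 0.17 in T1D against NGT, and Gsta4, Gsto1 and Mgst3 had -0.21, 0.01 and 0.23. Mgst1, the microsomal enzyme, had 0.78 ± 0.83 and was highest in T1D mouse 1, at 132 CPM, followed by NGT mouse 1, at 70.2 CPM. The value of Mgst1 turned to -0.495 when T1D mouse 1 was left out and was 0.493 without both mice of number 1, and that of Gsto1 turned to -0.39 and -0.495. The counts of Gstm1, Gstm2, Gstp1, Sod2, Txnrd2 and Ncf1 were not whole numbers in any of the 9 libraries, so their values are estimates, and whether reads were shared with other genes was not tested.

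Of the oxidant-producing genes, Cybb and Ncf1 spread over the widest range of the list. Their highest library exceeded the lowest 78.2-fold and 67.7-fold, against 15.7-fold for Cyba and 3.42-fold for Nox4. Cyba, the membrane subunit p22phox and the highest of these 4 genes by FPKM, was measured at 27.3, 3.79 and 8.00 CPM in NGT, 59.6, 9.56 and 17.5 CPM in T1D and 9.06, 5.69 and 54.7 CPM in Lira mice. Cybb, the catalytic subunit NOX2, had 92.5, 2.17 and 19.6 CPM in NGT, 169, 9.36 and 44.6 CPM in T1D and 26.3, 7.87 and 142 CPM in Lira mice. Ncf1, the cytosolic subunit p47phox, had 54.3, 1.47 and 15.0 CPM in NGT, 61.9, 7.92 and 34.1 CPM in T1D and 21.5, 5.22 and 99.5 CPM in Lira mice. Cybb and Ncf1 were named after their values were seen. In all 3 genes mouse 2 was the lowest of its group, and the highest mouse of each group had more than 6 times the level of its lowest. The log2 fold changes of Cyba, Cybb and Ncf1 in T1D against NGT were 1.15 ± 1.05, 0.97 ± 1.43 and 0.55 ± 1.28, and the 95% interval of Cyba was -1.25 to 3.55. Nox4, a constitutively active oxidase, had 0.31 ± 0.52, and -0.40 without T1D mouse 1. All 4 values were above 0, with a median of 0.76. The count was 1 of 4 (median -0.29) without T1D mouse 1, 4 of 4 (median 2.19) without NGT mouse 1, and 4 of 4 (median 1.25) without both.

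**Figure D3:**
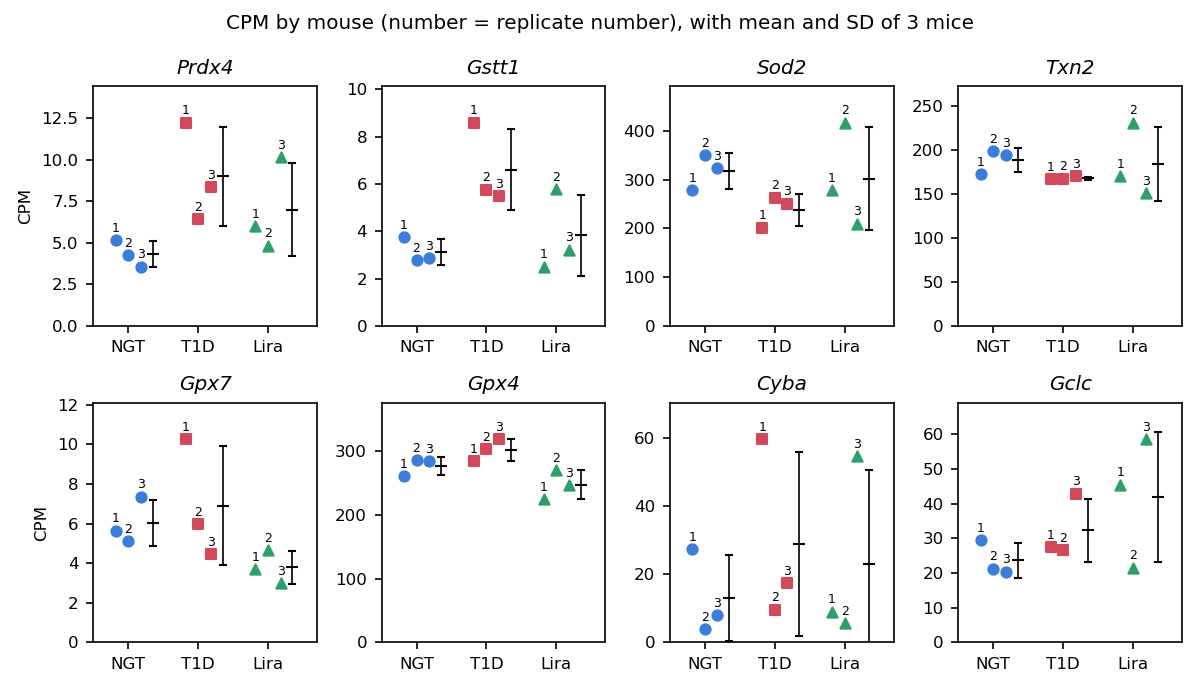
CPM of 8 members in each mouse (points, with the replicate number above), with the mean and SD of 3 mice as a bar to the right of each group. Prdx4 and Gstt1 are higher and Sod2 and Txn2 lower in every T1D than in every NGT mouse, Gpx4 is lower in every Lira than in every T1D mouse, and Cyba overlaps between all groups, with 1 high mouse in each.

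No label pairs NGT with T1D libraries, and they were paired here by replicate number on the expression data alone. For numbers 1, 2 and 3, deviations from the group means correlated across genes with r = 0.583, 0.647 and 0.283. Such correlations were not limited to equal numbers, since a Lira and an NGT mouse with different numbers reached r = 0.78. Whether shared cell content gave these correlations was not tested. Within numbers, 13 members were higher in T1D in all 3 pairs (31.7%, against 19.2% of all genes tested), and 3, Prdx3, Txn2 and Sod2, were lower in all 3 (7.32%, against 19% of all genes). Cyba was the most even of the oxidase subunits, with T1D minus NGT differences of 1.10, 1.14 and 1.04 in log2(CPM + 1). For Cybb they were 0.87, 1.71 and 1.15, and for Sod2 -0.46, -0.41 and -0.37. With the number as a block in a fit of only these 2 groups, 10 of 41 members had an unadjusted p under 0.05, where 14.2% of 13625 genes did. Among them, 9 were higher in T1D mice (Hmox1, Gpx1, Gpx8, Prdx4, Sod3, Gstt1, Cybb, Cyba and Ncf1) and Sod2 was lower. Cyba had a log2 fold change of 1.19 there (unadjusted p = 0.000288, edgeR). In the planned fit without the block it was 1.15 ± 1.05 (unadjusted p = 0.306, edgeR). The block was chosen from these same data, and the fit of only these 2 groups was added after they were seen. Its p-values are therefore no independent support. No member passed adjustment in the block fit of only these 2 groups either, and the lowest adjusted p was 0.229. With the number as a block over all 9 libraries, 3 members (Hmox1, Prdx4 and Gstt1) had an unadjusted p under 0.05, where 5.39% of 13960 genes did.

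Marker values moved within the same pairs. Summed macrophage markers were 361, 60.5 and 120 CPM in NGT and 2131, 134 and 237 CPM in T1D mice 1 to 3, higher in T1D in each pair. Summed neutrophil markers were 2552, 16.01 and 510 CPM in NGT and 1509, 94.0 and 1641 CPM in T1D mice, higher in 2 of 3 pairs. Summed osteoclast markers were 234, 90.2 and 125 CPM in NGT and 440, 160 and 371 CPM in T1D mice, higher in T1D in each pair. Cybb, Cyba and Ncf1 are expressed in neutrophils and in cells of the macrophage lineage, and the part of these cells in the paired differences was not tested.

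The second comparison, Lira against T1D, asked which genes differ under liraglutide in diabetic mice. It uses the same T1D mice as the first, so a library that is high there enters both with opposite signs. No member was called by edgeR, as for all genes (0%). A single member had an unadjusted p under 0.05, Gpx7, against 3.33% of all genes, and DESeq2 gave 2, Gpx7 and Gpx4. The lowest adjusted p of a member in edgeR was 0.978. Groups did not overlap for 1 member, Gpx4, against 7.13% of all genes. Fitted log2 fold changes were above 0 for 18 members and below 0 for 23, with a median of -0.09, against 0.04 for all genes. Without T1D mouse 1 the split was 27 to 14 and the median 0.13, the opposite direction.

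Gpx4 was measured at 225, 271 and 247 CPM in Lira mice, below the 285, 304 and 319 CPM of the T1D mice. Every Lira mouse lay below every T1D mouse, by a fold change of 0.818 (log2 -0.29 ± 0.15, 95% interval -0.64 to 0.06, unadjusted p = 0.0919 in edgeR, exact permutation p = 0.1, the smallest possible). The difference was small, and the value was -0.33 without T1D mouse 1. DESeq2 gave an unadjusted p of 0.0119. Gpx7 was measured at 3.71, 4.67 and 2.99 CPM in Lira mice, with a log2 fold change of -0.87 ± 0.36 (unadjusted p = 0.0409 in edgeR). It overlapped with T1D mouse 3, at 4.47 CPM. Leaving out T1D mouse 1, the value was -0.46 (unadjusted p = 0.188, edgeR). Against NGT mice the 3 Lira mice were all lower in Gpx7, with a log2 fold change of -0.67 ± 0.36 (unadjusted p = 0.0966 in edgeR, exact permutation p = 0.1).

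By role, 4 of the 5 glutathione peroxidases had fold changes below 0 in Lira against T1D mice, with a median of -0.77 on the log2 scale. The count was 4 of 5 (median -0.33) without T1D mouse 1 and 5 of 5 (median -0.725) without Lira mouse 3. Gpx3 had 666, 488 and 283 CPM in Lira mice and a log2 fold change of -0.77 ± 0.41 (unadjusted p = 0.0967, edgeR), and T1D mouse 2 lay within the Lira range. Gpx1, the cytosolic peroxidase that red cells hold in quantity, was the exception, with 0.24 ± 0.97. Glutathione transferases were below 0 in 8 of 9 cases with a median of -0.10, in 5 of 9 (median -0.17) without T1D mouse 1, in 9 of 9 (median -0.27) without Lira mouse 2 and in 4 of 9 (median 0.00) without Lira mouse 3. NADPH oxidase subunits were below 0 in 3 of 4 cases, with a median of -0.32. They were above 0 in all 4 (median 0.895) without T1D mouse 1, above 0 in 3 of 4 without Lira mouse 1 (median 0.04) or Lira mouse 2 (median 0.16), and below 0 in all 4, with a median of -1.68, without Lira mouse 3. NRF2 targets and genes of glutathione synthesis had log2 fold changes above 0 in 5 of 6 cases, with a median of 0.24, in 4 of 6 when scaled by library size and in 3 of 6 without Lira mouse 3, where the median was -0.01. Sod3 had -1.77 ± 0.88 (unadjusted p = 0.0756, edgeR), and 0.00 without T1D mouse 1.

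**Figure D4:**
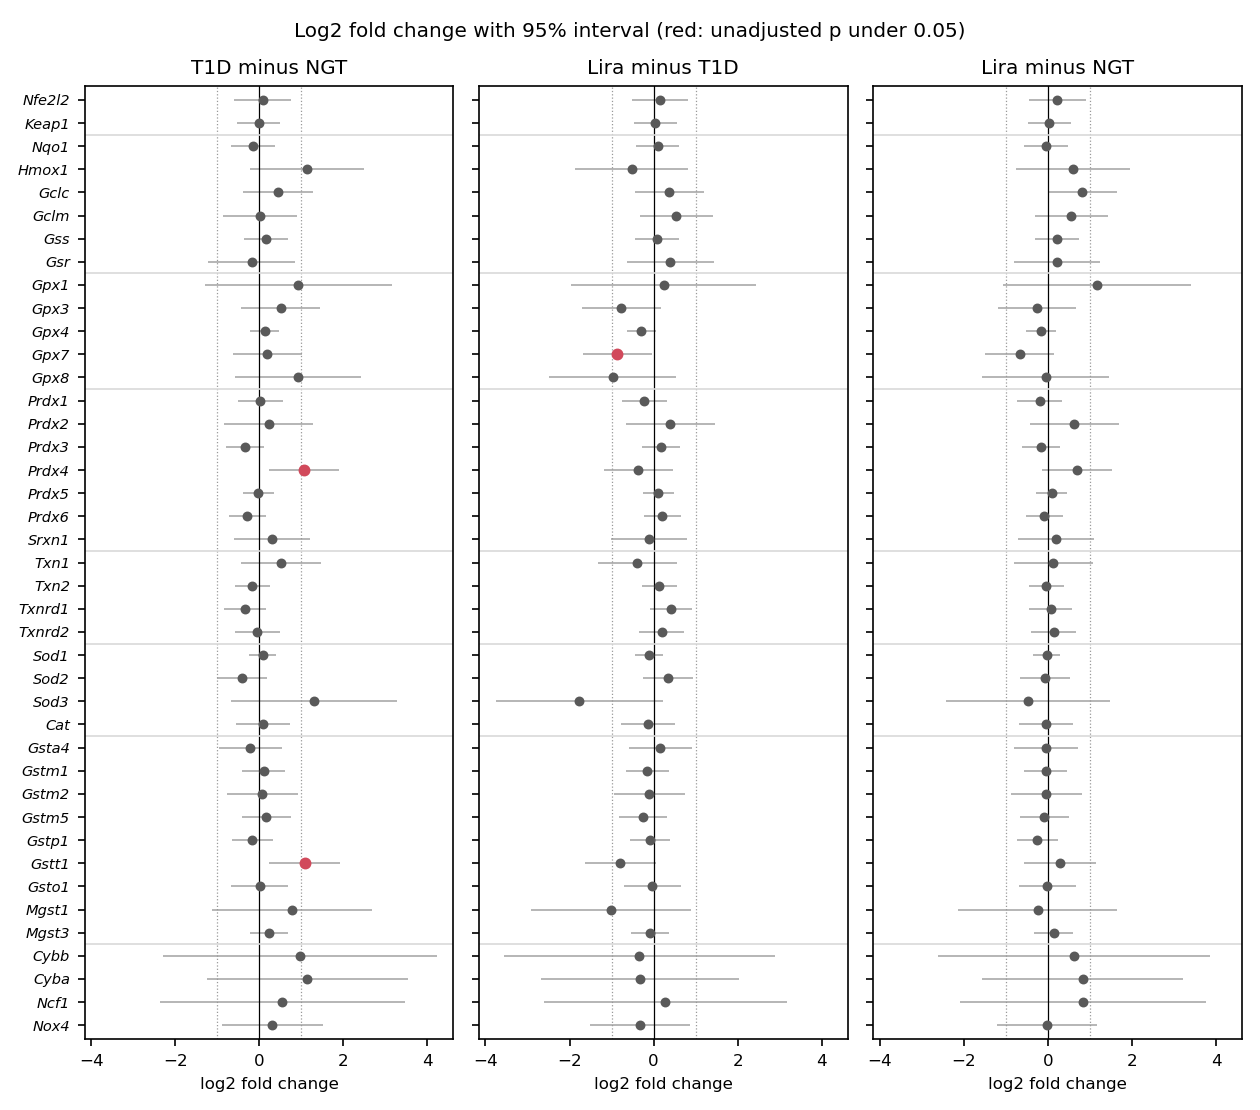
Log2 fold change of each of the 41 genes (points) with its 95% interval (lines) from edgeR in T1D against NGT, Lira against T1D and Lira against NGT, with dotted lines at 2-fold and red points for an unadjusted p under 0.05. The red points are Prdx4 and Gstt1 in the first panel and Gpx7 in the second, and the intervals of Cybb, Cyba and Ncf1 are the widest.

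In the third comparison, Lira against NGT, no member was called (0%) and no member had an unadjusted p under 0.05 in edgeR, where 0.781% of all genes did. DESeq2 gave 1 member at that level, Gclc. The groups did not overlap for 1 member, Gpx7, against 4.27% of all genes. The median log2 fold change of the members was -0.01, with 20 above 0 and 21 below. Gclc, the catalytic subunit of glutamate-cysteine ligase, was measured at 29.5, 21.3 and 20.4 CPM in NGT, 27.4, 26.7 and 42.9 CPM in T1D and 45.5, 21.5 and 58.6 CPM in Lira mice. Lira mice 1 and 3 lay above all NGT mice and Lira mouse 2 did not, and the log2 fold change was 0.82 ± 0.36 (unadjusted p = 0.0512, edgeR). Its partner Gclm, named after its values were seen, was 25.7, 25.1 and 26.2 CPM in NGT and 29.6, 23.2 and 60.6 CPM in Lira mice. NGT mice hardly differed in Gclm, and the Lira difference of 0.56 ± 0.38 came with 1 high library, Lira mouse 3.

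Several members were high or low in the same libraries as cell type markers, across groups. Over the 9 libraries, Cybb and Ncf1 were lowest in NGT mouse 2, which had the lowest neutrophil markers (3 of the 14 at 0). Ncf1 was highest in Lira mouse 3, which had the highest neutrophil markers, and Cybb was highest in T1D mouse 1, which had the highest macrophage markers. Gpx1 was measured at 26.0 CPM in NGT mouse 2, which had the lowest erythroid markers, and at 428 CPM in Lira mouse 3, which had the highest. Prdx2, an abundant red cell peroxiredoxin, reached 302 CPM in Lira mouse 3 and 185 CPM in T1D mouse 3, the 2 libraries with the most erythroid RNA, and lay between 81.0 and 129 CPM in the others. Gstm2 was 69.2 to 71.8 CPM in T1D mouse 1, NGT mouse 1 and Lira mouse 3, the 3 libraries with the least muscle RNA, and 123 to 147 CPM in the other 6. These values are descriptions over 9 libraries, and the part of each cell type was not tested.

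**Figure D5:**
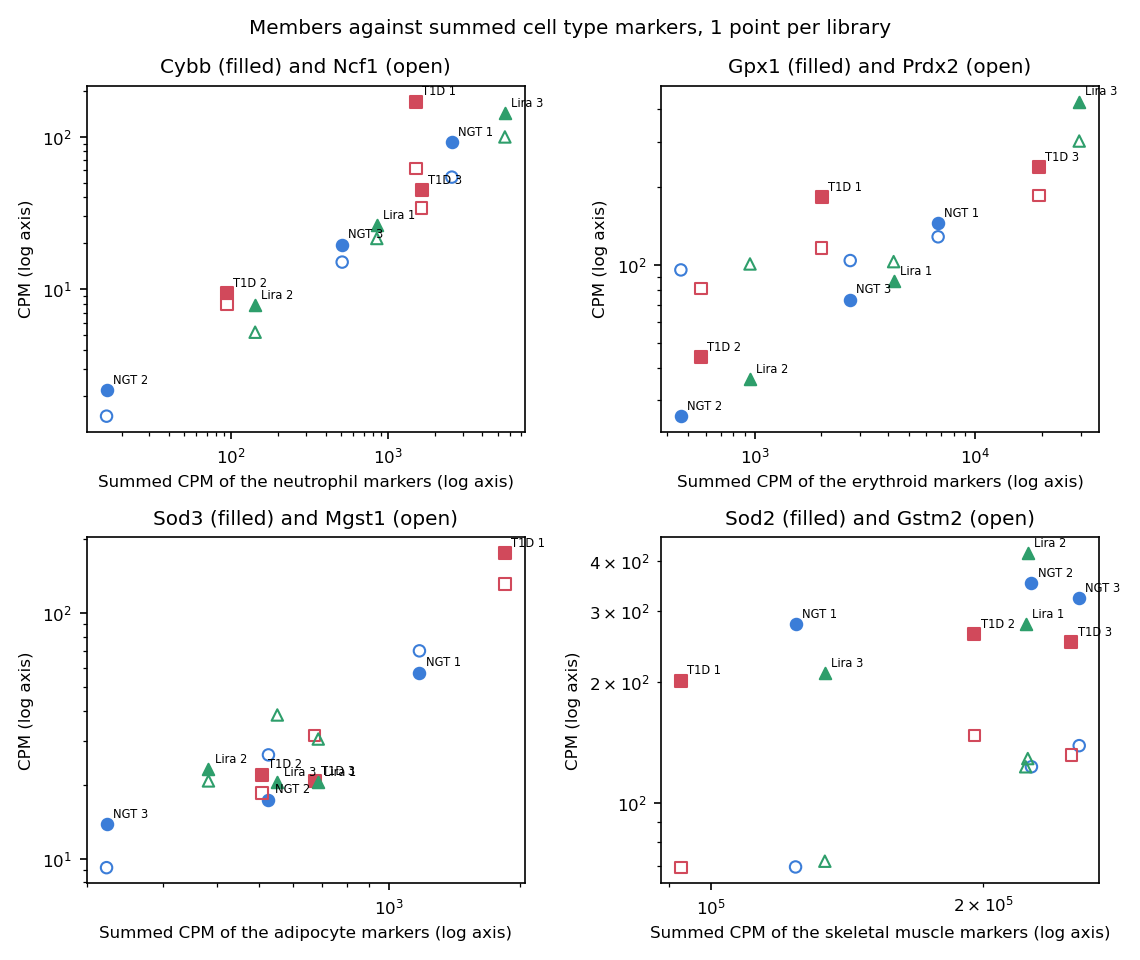
CPM of 8 members (log axes, 2 per panel, filled and open) against the summed CPM of 4 marker lists, with 1 point per library coloured by group and labelled at the filled points. Cybb and Ncf1 are lowest in NGT mouse 2 with the fewest neutrophil markers, and Ncf1 is highest in Lira mouse 3 with the most, while Cybb is highest in T1D mouse 1, Gpx1 and Prdx2 are highest in Lira mouse 3 with the most erythroid RNA, Sod3 and Mgst1 are highest in T1D mouse 1 with the most adipocyte RNA, and Gstm2 falls into a low set of 3 and a high set of 6 libraries along the muscle markers.

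Other genes of the same pathways were tested in the same way. Of 65 listed (further NRF2 targets and partners, NADPH supply, glutaredoxins and other glutathione genes, and further oxidant-producing enzymes), 60 were tested and none was called in any comparison by edgeR. In T1D against NGT, 2 of the 60 had an unadjusted p under 0.05, where 3.95% of all genes tested did. Gstt3, a theta-class transferase like Gstt1, was measured at 3.49, 1.39 and 2.38 CPM in NGT and 7.83, 3.54 and 4.47 CPM in T1D mice, a log2 fold change of 1.12 (unadjusted p = 0.0368, edgeR). Nos1, the neuronal nitric oxide synthase also found in skeletal muscle, had 139, 225 and 227 CPM in NGT and 64.0, 131 and 53.6 CPM in T1D mice, a log2 fold change of -1.25 (unadjusted p = 0.0177, edgeR). T1D mice were higher in Gstt3 than all NGT mice and lower in Nos1. In Lira against T1D, Selenop, which encodes the plasma selenium carrier, was the single gene of the 60 at that level, against 3.33% of all genes, at 401, 287 and 350 CPM in T1D and 254, 259 and 187 CPM in Lira mice (log2 fold change -0.57, unadjusted p = 0.0232, edgeR). In Lira against NGT it was Me1 alone, the cytosolic malic enzyme that supplies NADPH, against 0.781% of all genes, at 564, 483 and 530 CPM in NGT and 321, 369 and 313 CPM in Lira mice (log2 fold change -0.65, unadjusted p = 0.0112, edgeR). Selenop and Me1 were lower in every Lira mouse than in every mouse of the group compared, and neither passed adjustment.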

How the data were processed

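Total RNA of 9 tibiae (3 NGT, 3 T1D and 3 Lira mice, 1 library each) was enriched for polyadenylated RNA and sequenced by the authors. They deposited expected counts per gene, of which 30.2% are not whole numbers, and FPKM values, scaled by the authors for gene length and library total. The genome build in the submitters' processing notes is mm9, and the aligner and counter are not given in the sources used here. Columns of the authors' group means were not used, and each sample column matched a labelled mouse.

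Counts were rounded, and a gene was kept if 3 or more libraries had 10 or more counts. Tests used R 4.3.3 with edgeR 4.0.16 (TMM, quasi-likelihood test over all 9 libraries) and Benjamini-Hochberg adjustment over all genes tested. A DEG needed both a fold change over 2 and an adjusted p-value below 0.05. Errors of log2 fold changes are SE. CPM values were TMM-scaled, and 3 counts correspond to 0.182 to 0.229 CPM per library before TMM scaling. Single members were compared by exact permutation over mice on log2(CPM + 1). The labels do not describe how mice were housed or handled together, so p-values measure the spread between these mice. The fit was tested on simulated data.

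For the pairing check, same-numbered NGT and T1D mice were compared across genes by their deviations of log2 CPM from the group means (r = 0.583, 0.647 and 0.283). Since every value exceeded 0.1, NGT and T1D mice were treated as pairs, on the data alone. The members and lists were chosen with earlier results of these data known. Values in every library were given for Nfe2l2, Keap1, the most abundant member of each role by FPKM, members with an unadjusted p under 0.05 and members whose groups did not overlap. Hmox1, Gclc, Gclm, Gpx1, Gpx8, Prdx2, Sod3, Gstm2, Mgst1, Cybb and Ncf1 were described, most of them by part of their values, after these were seen. Alternatives were DESeq2 1.42.0, library size scaling, no filter, only the 2 groups compared, the replicate block, edgeR's robust option, limma 3.58.1 on log2(CPM + 1), group mean FPKM and leaving out mice. The replicate block in a fit of only the 2 groups compared and leaving out both mice of number 1 were added after seeing the data. RefSeq promoter windows are of GRCm38.p6.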

Additional observations from a re-analysis of the deposited data

How the results depend on the processing

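The count of members called was 0 in every comparison under each alternative, including DESeq2, limma and each mouse left out. What size of difference could be detected with 3 mice a group was not tested. The median coefficient of variation of the members within groups was 30.5%. Large fitted differences did not pass either. In T1D against NGT, the macrophage marker C1qb had a fold change of 10.3 with an adjusted p of 0.977 (edgeR). The 95% interval of Cybb there ran from -2.29 to 4.22 on the log2 scale. The 0 calls therefore do not exclude large differences in the members. The counts of members with an unadjusted p under 0.05 moved as follows. In the main fit, 3.95% of all genes tested had such a p in T1D against NGT, 3.33% in Lira against T1D and 0.781% in Lira against NGT. With the replicate block in a fit of only the 2 groups, 14.2% of 13625 genes did in T1D against NGT. Shares of all genes are not set beside most other alternatives here. A shift in the members cannot be told apart there from a shift in all genes. In T1D against NGT, 2 members became 1 with library size scaling, 10 with the replicate block in a fit of only the 2 groups, and 0 to 4 with 1 mouse left out, the 0 without NGT mouse 3 or T1D mouse 1. In Lira against T1D, 1 member became 2 with DESeq2 or library size scaling, 0 with only the 2 groups compared, 0 with the replicate block, which does not pair these groups, and 0 to 3 with 1 mouse left out. In Lira against NGT, 0 members became 1 with DESeq2, without the filter and with the replicate block, and 0 to 2 with 1 mouse left out. The causes were not tested. Without T1D mouse 1 and Lira mouse 3 together the counts were 2, 1 and 0, and in T1D against NGT the members were Prdx4 and Prdx6. Library size scaling shifted the members by a median of 0.09 in T1D against NGT and -0.11 in Lira against T1D on the log2 scale. Leaving out NGT mouse 1 and T1D mouse 1 together, added after seeing the data, gave 1 member with p under 0.05 in each comparison, and Prdx4 and Gstt1 in T1D against NGT were then above an unadjusted p of 0.05.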
